A study of Homo sapiens with 8 samples.

Results

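The p53 target genes considered here are 10 genes that the transcription factor p53 is known to induce: CDKN1A, MDM2, GDF15, BBC3, FAS, TP53I3, ZMAT3, RRM2B, BTG2 and TNFRSF10B. Of these 10, 9 could be read on the array from a probe set that carries their symbol alone, 1 probe set each, out of 18377 genes read in this way. BTG2 has no such probe set and was not analysed here. All 9 measured genes passed the limit on low signal (30, or 4.91 on the log2 scale) in every comparison, and their lowest log2 signal on any array was 7.67.

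The cells were A549, a line of type II-like lung epithelial cells from a human adenocarcinoma that carries wild-type p53. They were grown on membranes and exposed at the air-liquid interface for 4 hr, and RNA was taken 9 hr later. In the morning, cells received the primary pollutants, a fresh mixture of urban hydrocarbons and nitrogen oxides in an outdoor chamber, and in the evening the PCA (photochemically altered) pollutants, the same mixture after a day of sunlight. Each exposure had its own control in humidified incubator air, the morning control and the evening control. Each of the 4 groups had 2 Human Gene 1.0 ST arrays, 8 in all, from duplicate samples of the same exposure day, so errors measure the spread within 1 run of 1 cell line. Mixture, time of day and run cannot be told apart.

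p53 is held at a low level by MDM2, an E3 ubiquitin ligase that marks it for degradation. Stresses such as DNA damage release p53 from MDM2, and p53 then binds its response elements and induces genes for cell cycle arrest, DNA repair and cell death, along with MDM2 itself, which closes a feedback loop. In lung epithelium the pathway is known for its response to radiation, oxidants and genotoxic chemicals in inhaled air.

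A p53 response element is a pair of decamers of the p53 consensus, and the joined 20-base site reads alike on both strands, so a match covers both. Sites without a spacer were looked for in promoter windows of RefSeq (GRCh38.p14) that run from 250 bases before to 50 after a start site. Windows were found for 8 of the 10 genes, 14 windows in all. A match with at most 3 mismatches was present in 4 of these 14 windows, of MDM2 (a pair of windows that overlap), FAS and GDF15, against 5.2% of all 35116 windows. At most 2 mismatches were found in 3 of the 14, of MDM2 and FAS, against 0.649% of all windows. These matches are descriptions of the letters and not binding sites shown in these cells. The promoters of MDM2 and GDF15 are printed, MDM2 as the feedback gene with a p53-responsive promoter and GDF15 as the gene that rose, with each 20-base match, mismatches included, in capitals. The 250 bases before the GDF15 start hold no match.
MDM2 second promoter, chr12:68808767-68809016, plus strand: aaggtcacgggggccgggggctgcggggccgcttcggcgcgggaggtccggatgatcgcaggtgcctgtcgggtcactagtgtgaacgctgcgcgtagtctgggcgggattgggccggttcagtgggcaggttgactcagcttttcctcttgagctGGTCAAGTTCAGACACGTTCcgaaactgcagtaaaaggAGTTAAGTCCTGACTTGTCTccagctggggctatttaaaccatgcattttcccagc
GDF15 promoter, chr19:18385908-18386157, plus strand: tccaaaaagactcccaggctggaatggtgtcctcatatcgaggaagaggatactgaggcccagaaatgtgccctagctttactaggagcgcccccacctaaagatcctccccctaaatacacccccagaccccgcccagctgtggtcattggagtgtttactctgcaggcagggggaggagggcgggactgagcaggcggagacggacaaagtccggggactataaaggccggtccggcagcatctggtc

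The 4 matched sites are printed on their own so that they can be compared, with bases that fit the consensus in capitals and mismatches in lower case.
MDM2 site 1, chr12:68808923-68808942, plus strand: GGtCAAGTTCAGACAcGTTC
MDM2 site 2, chr12:68808961-68808980, plus strand: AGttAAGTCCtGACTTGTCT
FAS site, chr10:88991309-88991328, plus strand: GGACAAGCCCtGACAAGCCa
GDF15 site, chr19:18386186-18386205, plus strand: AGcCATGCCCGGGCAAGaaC
The MDM2 sites begin at -94 and -56 from the start of the second promoter, 2 sites in 1 window, with 2 and 3 mismatches. The FAS site begins at -122 from the start in the window chr10:88991181-88991480, and its first decamer matched without a mismatch, as in 6.63% of windows. The other FAS windows lie farther upstream, so the site falls after their starts, and they had 5 mismatches at best. The GDF15 site begins at +29, after the start, with 3 mismatches. The closest 20 bases in the CDKN1A window had 5 mismatches, which 70.5% of windows reach, and this window does not cover sequence farther upstream.

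Of the 9 genes, GDF15 alone rose after the PCA pollutants, by 1.60-fold, and none rose or fell after the primary pollutants. Here rose and fell mean a Benjamini-Hochberg adjusted p under 0.05 over all probe sets tested in limma together with a fold change of at least 1.5. After the PCA pollutants 1 of 9 genes passed, against 3.53% of the 17470 genes tested (0.876% higher, 2.66% lower). After the primary pollutants 0 of 9 passed, as did 0% of 17381 genes, and 1 of the 9, TP53I3, had an unadjusted p under 0.05 (7.9% of all genes). CDKN1A and MDM2, the p53 targets most often read as its indicators, had log2 fold changes of 0.078 and -0.19 after the PCA pollutants, and neither passed the test.

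**Figure D1:**
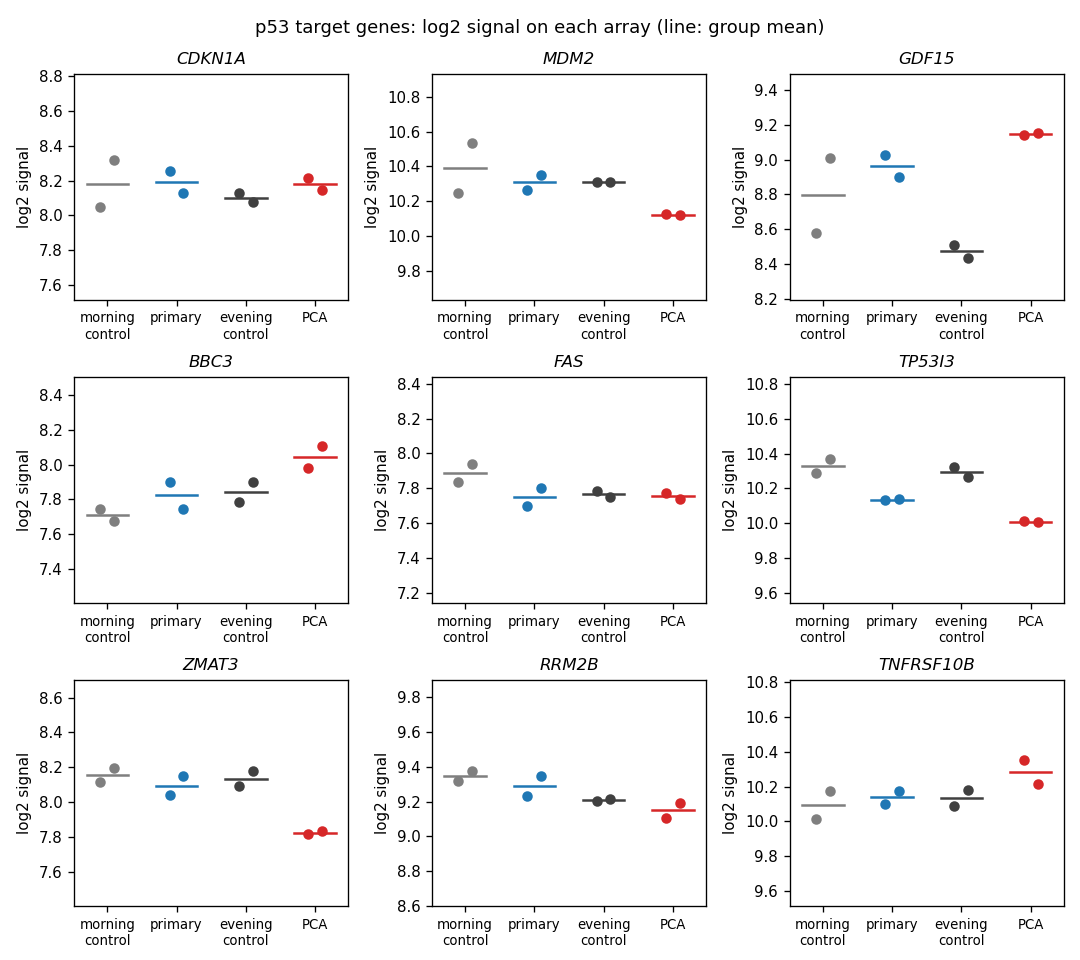
Log2 signal of the 9 measured p53 target genes on each of the 8 arrays, 1 panel per gene, with points for arrays and lines for group means over 2 arrays (every vertical axis spans the same range of log2 units). On the PCA arrays GDF15 (9.14 and 9.15), BBC3 and TNFRSF10B lie above all other arrays. TP53I3, ZMAT3, MDM2 and, by a narrow margin, RRM2B on the PCA arrays lie below all others.

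GDF15 encodes a secreted cytokine of the TGF-beta superfamily that many cells release under stress. Its log2 signals were 8.58 and 9.01 in the morning control, 9.02 and 8.90 with the primary pollutants, 8.51 and 8.44 in the evening control, and 9.14 and 9.15 with the PCA pollutants. The PCA arrays were the highest of the 8, the evening control arrays the lowest, and the morning control arrays lay far apart, with an SD of 0.30 against 0.0062 to 0.0887 in the other groups. Over the evening control the log2 fold change was 0.67 (SE 0.133, n = 2 arrays per group, limma adjusted p = 0.0148), with a 95% interval of 0.36 to 0.98 that reaches below the 1.5-fold limit of 0.585.

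The rise of GDF15 rested on few arrays. Without any 1 of its 4 own arrays the log2 fold change was between 0.64 and 0.71, but the limma adjusted p was 0.0610 and 0.0830 without evening control 1 and 2 and 0.0546 and 0.0633 without PCA array 1 and 2, so the call was lost each time. Set against the morning control, the PCA arrays were higher by 0.35 on the log2 scale (SE 0.133, adjusted p = 0.0995). The evening control was itself below the morning control by a log2 difference of -0.32 (SE 0.133, unadjusted p = 0.0429, adjusted p = 1.00 in limma), and 0 of 9 genes, with 0% of 17310 genes, passed in that comparison of controls.

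**Figure D2:**
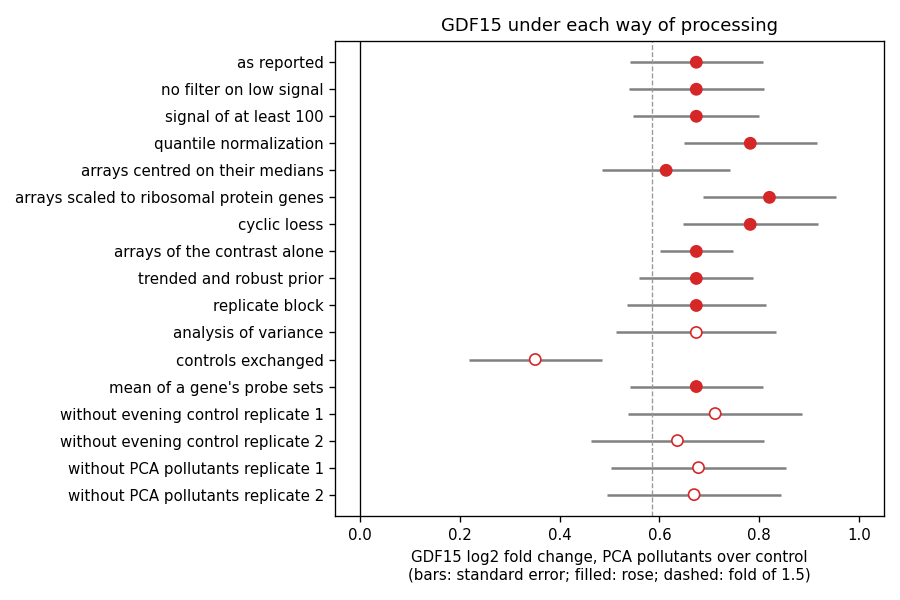
GDF15 log2 fold change after the PCA pollutants as reported and under the alternatives plotted, with bars for 1 standard error, filled points where GDF15 rose (adjusted p under 0.05 and at least 1.5-fold) and open points where it did not. All values lie between 0.35 and 0.82, and the call is lost in the analysis of variance, with the morning control in place of the evening control and without any 1 of the 4 arrays of the comparison.

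After the primary pollutants GDF15 had a log2 fold change of 0.17 (SE 0.133, limma adjusted p = 0.786), and its primary arrays overlapped the morning control. This value ran from -0.049 without morning control 1 to 0.38 without morning control 2. The PCA response exceeded the primary response by 0.51 on the log2 scale (SE 0.188, unadjusted p = 0.0284), which did not pass after adjustment (0.223). In this test of the difference 0 of 9 genes passed, against 0.439% of 17540 genes.

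CDKN1A encodes p21, the inhibitor of cyclin-dependent kinases through which p53 arrests the cycle. Its log2 signals were 8.05 and 8.32 in the morning control, 8.26 and 8.13 with the primary pollutants, 8.13 and 8.08 in the evening control, and 8.22 and 8.15 with the PCA pollutants. The PCA arrays lay just above the evening control but below morning control 2, and the primary arrays lay within the range of their control. The log2 fold change was 0.0099 (SE 0.101) after the primary and 0.078 (SE 0.101, limma adjusted p = 0.595) after the PCA pollutants, the latter with a 95% interval of -0.16 to 0.31, which does not include a 1.5-fold change in either direction.

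MDM2, the ligase of the feedback loop, had log2 signals of 10.25 and 10.53 in the morning control, 10.27 and 10.35 with the primary pollutants, 10.31 and 10.31 in the evening control, and 10.13 and 10.12 with the PCA pollutants. The PCA arrays were the lowest of the 8. The log2 fold change was -0.19 (SE 0.0994, limma adjusted p = 0.210, 95% interval -0.42 to 0.045) after the PCA and -0.083 (SE 0.0994, adjusted p = 0.864) after the primary pollutants. Neither passed, and the PCA interval excludes a rise of 1.5-fold. MDM4, a relative of MDM2 that restrains p53 activity, had a log2 fold change of -0.21 (SE 0.105, adjusted p = 0.179) after the PCA pollutants.

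TP53I3 and ZMAT3 were lower after the PCA pollutants by the adjusted p alone, without reaching 1.5-fold. TP53I3 encodes a quinone oxidoreductase linked to oxidative stress in cell death, and ZMAT3 a zinc finger protein that binds RNA. TP53I3 had log2 signals of 10.29 and 10.37 in the morning control, 10.13 and 10.14 with the primary pollutants, 10.32 and 10.27 in the evening control, and 10.01 and 10.01 with the PCA pollutants. Both exposed groups lay below both controls without overlap. Its log2 fold change was -0.29 (SE 0.0691, limma adjusted p = 0.0280) after the PCA and -0.19 (SE 0.0691, unadjusted p = 0.0250, adjusted p = 0.516) after the primary pollutants, and the test of the difference between these responses gave -0.094 (SE 0.0977, adjusted p = 0.660).

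ZMAT3 had log2 signals of 8.12 and 8.19 in the morning control, 8.04 and 8.15 with the primary pollutants, 8.09 and 8.18 in the evening control, and 7.82 and 7.83 with the PCA pollutants. The PCA arrays were clearly apart at the low end, and the other 6 overlapped. Its log2 fold change was -0.31 (SE 0.0762, limma adjusted p = 0.0300) after the PCA and -0.062 (SE 0.0762, adjusted p = 0.870) after the primary pollutants, and the difference between them, -0.25 (SE 0.108, adjusted p = 0.288), did not pass. With GDF15 this made 3 of 9 genes past the adjusted p alone, 1 higher and 2 lower, against 19.7% of all genes (5.63% higher and 14.1% lower). With arrays scaled to 56 ribosomal protein genes the log2 fold changes shrank to -0.14 for TP53I3 (adjusted p = 0.165) and -0.16 for ZMAT3 (0.149), and under cyclic loess normalization to -0.15 (0.178) and -0.25 (0.0596), so neither was then past the threshold. Quantile normalization gave -0.19 for TP53I3 (0.103) and -0.26 for ZMAT3 (0.0485), and the 4 arrays of the comparison fitted alone gave adjusted p of 0.0551 and 0.0514. Both also missed the threshold without any 1 of the 4 arrays of the comparison, at 0.0752 to 0.160, and without either morning control array, at 0.0506 to 0.0540.

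The cell death genes among the 9 did not pass the test in either comparison. BBC3 encodes PUMA, a BH3-only protein that promotes release of mitochondrial factors, and it had log2 signals of 7.74 and 7.67 in the morning control, 7.90 and 7.74 with the primary pollutants, 7.78 and 7.90 in the evening control, and 7.98 and 8.11 with the PCA pollutants. The PCA arrays were the highest of the 8 for BBC3, and the primary arrays were above the morning control by a narrow margin. The log2 fold change of BBC3 was 0.20 (SE 0.0897, limma adjusted p = 0.142) after the PCA and 0.11 (SE 0.0897, adjusted p = 0.782) after the primary pollutants. With arrays scaled to ribosomal protein genes, BBC3 was past the adjusted p alone after the PCA pollutants (0.35 on the log2 scale, adjusted p = 0.0241), as it was against the morning control (0.34, adjusted p = 0.0383).

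FAS and TNFRSF10B encode death receptors, for FAS ligand and for TRAIL. FAS had log2 signals of 7.83 and 7.94 in the morning control, 7.70 and 7.80 with the primary pollutants, 7.79 and 7.75 in the evening control, and 7.77 and 7.74 with the PCA pollutants. FAS was the only 1 of the 9 genes whose PCA arrays overlapped the evening control, and its log2 fold changes were -0.013 (SE 0.0760, limma adjusted p = 0.913) after the PCA and -0.14 (SE 0.0760, adjusted p = 0.669) after the primary pollutants. The sign of the FAS value after the PCA pollutants was positive under quantile normalization, cyclic loess and ribosomal scaling.

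TNFRSF10B had log2 signals of 10.02 and 10.17 in the morning control, 10.10 and 10.18 with the primary pollutants, 10.09 and 10.18 in the evening control, and 10.35 and 10.21 with the PCA pollutants. The PCA arrays were the highest of the 8, though the lower of them was close to the highest evening control array. The log2 fold change was 0.15 (SE 0.0893, limma adjusted p = 0.255) after the PCA and 0.043 (SE 0.0893, adjusted p = 0.932) after the primary pollutants. With arrays scaled to ribosomal protein genes, TNFRSF10B was also past the adjusted p alone after the PCA pollutants (0.30 on the log2 scale, adjusted p = 0.0498).

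RRM2B encodes the p53-induced small subunit of ribonucleotide reductase, which supplies deoxynucleotides for DNA repair. Its log2 signals were 9.32 and 9.38 in the morning control, 9.23 and 9.35 with the primary pollutants, 9.20 and 9.21 in the evening control, and 9.11 and 9.19 with the PCA pollutants. The morning groups lay above the evening groups, and each exposed group was close to its own control. The log2 fold change was -0.059 (SE 0.0752) in both comparisons, with limma adjusted p of 0.586 after the PCA and 0.879 after the primary pollutants. The sign of the PCA value turned positive under quantile normalization, cyclic loess and ribosomal scaling.

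**Figure D3:**
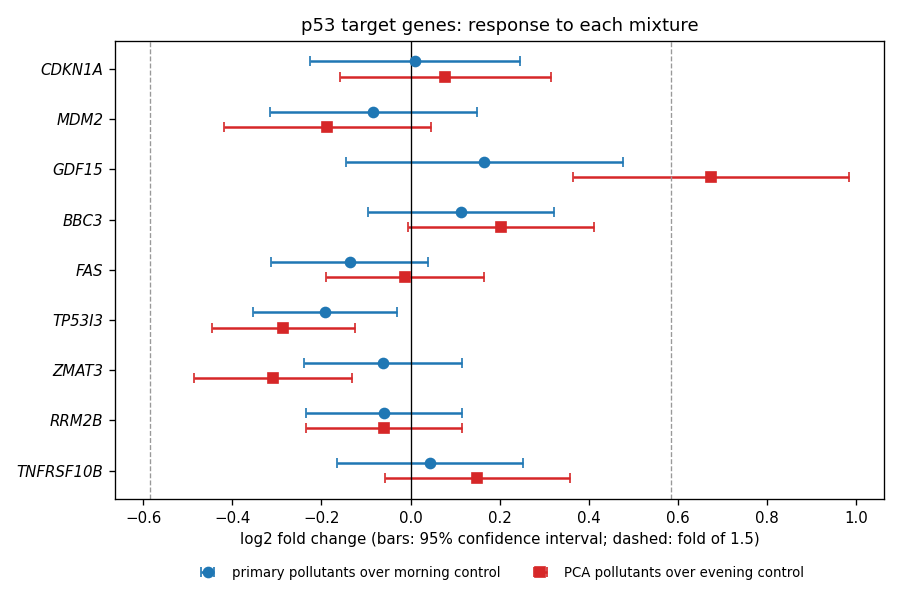
Log2 fold change of the 9 genes for each mixture against its own control (circles for the primary pollutants, squares for the PCA pollutants), with bars for 95% confidence intervals and dashed lines at 1.5-fold. Only the GDF15 value after the PCA pollutants (0.67) lies beyond 1.5-fold, and the PCA intervals of GDF15, TP53I3 and ZMAT3 exclude 0.

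As a group the 9 genes did not move one way. After the PCA pollutants 4 log2 fold changes were positive and 5 negative, with a median of -0.013, against a median of -0.0017 over all genes tested, of which 49.7% were positive. The 4 positive genes each had PCA arrays above the evening control and 4 of the 5 negative genes had them below, so 8 of 9 did not overlap, where 68.3% of all genes did not overlap in this comparison. The split became 6 positive and 3 negative under quantile normalization, cyclic loess and ribosomal scaling. After the primary pollutants 4 values were positive and 5 negative, with a median of -0.059 (47.4% of all genes were positive), and 3 of 9 genes did not overlap (BBC3 higher, FAS and TP53I3 lower), against 38.7% of all genes.

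Across the 8 arrays GDF15 ran closest to DKC1 (Pearson r = 0.983), ZPR1 (0.979), OR5AU1 (0.974), TMEM202 (0.972) and OR2D3 (0.969), among 17539 genes. MDM2 ran closest to CIB2 (0.955), H2BC21 (0.953), H2BC13 (0.947), CDCA3 (0.942) and ENSA (0.938), and CDKN1A to OR4L1 (0.956), PRSS58 (0.942), OR4F15 (0.920), ME3 (0.906) and POU4F2 (0.905). None of the 5 leading genes of the 3 lists was another of the p53 targets considered here. These correlations are over arrays that share groups and normalization and describe likeness of level only.

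Of 86 further p53 targets that were listed by role, 81 had a probe set and 80 were tested after the PCA pollutants, of which 2 rose, 8 fell and 70 did not pass (over all genes 0.876% rose and 2.66% fell). The median log2 fold change of the 80 was -0.12, with 32 positive and 48 negative values, where 49.7% of all genes were positive. By the adjusted p alone 6 of the 80 were higher and 21 lower, against 5.63% and 14.1% of all genes. After the primary pollutants 0 of 80 passed in limma, and 18 had an unadjusted p under 0.05, against 7.9% of all genes. The balance depends on the scaling. Ribosomal scaling moved the median of all genes to 0.15 and that of the 80 to 0.023 (44 positive, 36 negative, 4 risen, 3 fallen), while over all genes it turned 153 risen and 464 fallen into 455 and 190. The median of the 80 was below that of all genes under both scalings.

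TP53INP1, which encodes a stress protein that promotes p53 phosphorylation and cell death, had the largest change of all these targets. Its log2 signals were 8.80 and 8.87 in the evening control and 7.36 and 7.46 with the PCA pollutants, and 8.65 and 8.68 in the morning control and 8.33 and 8.34 with the primary pollutants. Exposed arrays were below their controls in both comparisons. TP53INP1 fell by 1.42 on the log2 scale (SE 0.0725, limma adjusted p = 0.000668) after the PCA pollutants and had a log2 fold change of -0.33 (SE 0.0725, adjusted p = 0.406) after the primary pollutants. The difference between these responses was -1.09 (SE 0.102, adjusted p = 0.0230), which was no longer past the threshold when any 1 of the 8 arrays was left out.

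Other death genes that fell after the PCA pollutants were APAF1, the scaffold of the apoptosome (-0.60 on the log2 scale, SE 0.0797, limma adjusted p = 0.00414), and SPATA18, which acts in mitochondrial quality control (-0.65, SE 0.0872, adjusted p = 0.00433). In all 3 of 19 death genes fell and 0 rose, against 2.66% and 0.876% of all genes. Among 15 genes of arrest and growth, CCNG1, which encodes cyclin G1, fell (-0.61, SE 0.0724, adjusted p = 0.00289) and TGFA, which encodes a ligand of the EGF receptor, rose (0.61, SE 0.0962, adjusted p = 0.00696). SFN, the 14-3-3 sigma gene of G2 arrest, was higher by the adjusted p alone (0.54, SE 0.0796), and BTG1, an antiproliferative gene, lower (-0.44, SE 0.0667).

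Among 9 genes of DNA repair and nucleotides, 1 fell and 0 rose (2.66% and 0.876% of all genes), with a median of -0.32. By the adjusted p alone 5 of the 9 were lower, against 14.1% of all genes. The gene that fell was RPS27L (-0.62 on the log2 scale, SE 0.115, limma adjusted p = 0.0120), a ribosomal protein paralog whose probes may also read close copies. XPC, the damage sensor of nucleotide excision repair, and POLH, the translesion polymerase eta, were lower by the adjusted p alone, at -0.45 (SE 0.0704) and -0.41 (SE 0.0775). Among 12 genes grouped here under metabolism and redox, a loose label for CYFIP2, CYFIP2 (-0.73, SE 0.0717, adjusted p = 0.00177) and ABCA12, a lipid transporter gene (-0.68, SE 0.0980, adjusted p = 0.00536), fell. SAT1, a polyamine acetyltransferase gene, had -0.24 (SE 0.0877, adjusted p = 0.0860).

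Among 25 genes of adhesion, traffic and other roles 1 rose and 1 fell, against 0.876% and 2.66% of all genes. EPHA2, which encodes an ephrin receptor kinase, rose (0.68 on the log2 scale, SE 0.0992, limma adjusted p = 0.00551) and ANKRA2 fell (-0.86, SE 0.124, adjusted p = 0.00536). By the adjusted p alone 2 of the 25 were higher and 7 lower, against 5.63% and 14.1% of all genes. EPHA2 had a log2 fold change of 0.40 (SE 0.0992, adjusted p = 0.462) after the primary pollutants. Of the 10 called targets, TP53INP1, SPATA18, CYFIP2, ABCA12 and ANKRA2 kept their call in limma without any 1 array. Leaving out an array lost the call of RPS27L (evening control 1 or 2, or PCA array 1), TGFA (evening control 1 or PCA array 1), APAF1 (evening control 2 or PCA array 2), CCNG1 (evening control 1) and EPHA2 (PCA array 1), with all 5 at log2 fold changes of the same sign. The scaling also changed these calls, with signs kept. Under ribosomal scaling SPATA18 (-0.50) and ABCA12 (-0.53) fell short of 1.5-fold. CCNG1, APAF1 and RPS27L fell short of it under ribosomal scaling, quantile normalization and cyclic loess. TGFA (0.55) did so with arrays centred on their medians. BCL6, a transcriptional repressor gene, was lower by the adjusted p alone after the PCA pollutants (-0.52, SE 0.0721, adjusted p = 0.00477). After the primary pollutants it had 0.22 (SE 0.0721, adjusted p = 0.509).

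**Figure D4:**
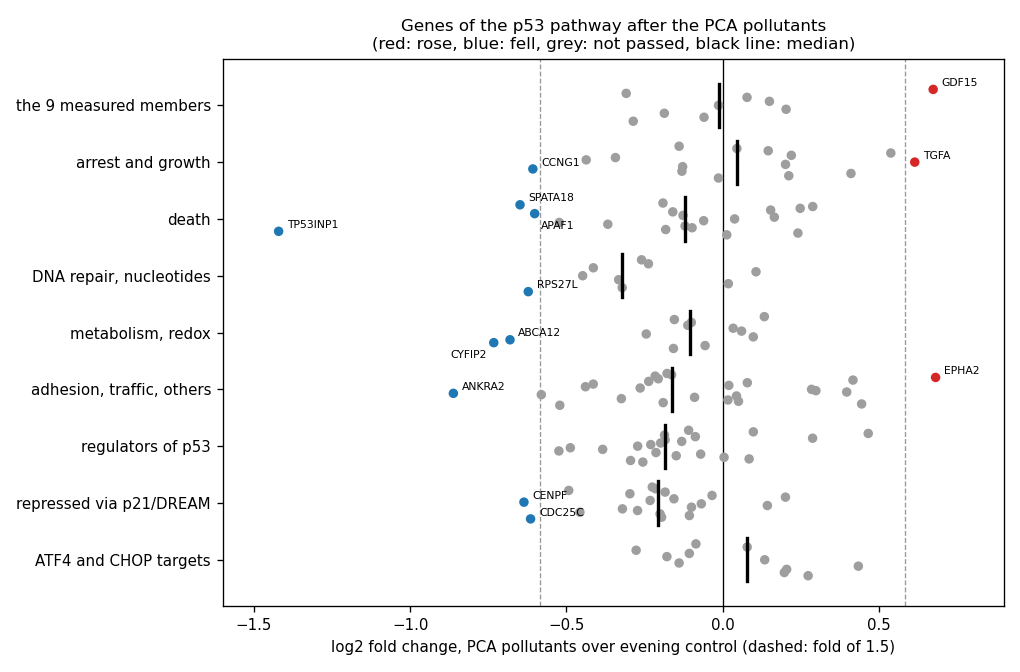
Log2 fold change after the PCA pollutants over the evening control for the 9 measured genes, 80 other p53 targets by role, regulators of p53, genes repressed through p21 and the DREAM complex, and ATF4 and CHOP targets (a list that includes the genes of both factors), with 1 point per gene and a black line at each list's median. Named points rose (red) or fell (blue), dashed lines mark 1.5-fold, and TP53INP1 (-1.42) lies farthest out.

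Of 23 regulators of p53, 21 had a probe set and 0 passed the test after the PCA pollutants in limma (3.53% of all genes did), with 10 at an unadjusted p under 0.05, against 36.9% of all genes. By the adjusted p alone 5 were lower and 0 higher, against 14.1% and 5.63% of all genes, with a median over the 21 of -0.18. They include ATM, the kinase that signals DNA breaks to p53 (-0.52 on the log2 scale, SE 0.0885, adjusted p = 0.00883), TP53BP1, a p53-binding break repair factor (-0.49, SE 0.0709, adjusted p = 0.00551), and PPM1D, a phosphatase that ends p53 signaling (-0.26, SE 0.0677, adjusted p = 0.0371).

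The 20 listed cell cycle genes that p53 represses through p21 and the DREAM complex include genes of DNA replication as well as of mitosis. After the PCA pollutants 2 of the 20 fell and 0 rose, against 2.66% and 0.876% of all genes. Their median was -0.21, with 18 negative and 2 positive values (49.7% of all genes were positive). The positive genes were CDC25A and POLD1, with group means of 6.85 and 7.71 in the evening control and 7.05 and 7.86 with the PCA pollutants. CENPF, a kinetochore gene, fell by 0.64 (SE 0.0782, limma adjusted p = 0.00323) and CDC25C, the phosphatase gene of mitotic entry, fell by 0.61 (SE 0.0866, adjusted p = 0.00501), while CCNB2, the cyclin B2 gene, had -0.49 (SE 0.0770, adjusted p = 0.00696). CDKN1A itself, described earlier, did not pass. All 20 were lower in the evening than in the morning control, with a median of -0.16, where 48.7% of all genes were lower. In that comparison 0 of the 20 passed in limma, and 9 had an unadjusted p under 0.05, against 4.97% of all genes. The call of CDC25C was lost without evening control 1 or PCA array 1, and after the PCA pollutants 1 of the 20 fell under quantile normalization and cyclic loess and 0 under ribosomal scaling.

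GDF15 is also known as a target of ATF4 and CHOP, the factors of the integrated stress response. The list of 11 genes for these factors includes ATF4 and DDIT3, the gene of CHOP, themselves. After the PCA pollutants 0 of the 11 passed the test in limma, against 3.53% of all genes, and 5 had an unadjusted p under 0.05 (36.9% of all genes). Their median was 0.079, with 6 positive and 5 negative values, where 49.7% of all genes were positive. By the adjusted p alone 2 of the 11 were higher and 0 lower, against 5.63% and 14.1% of all genes. ATF3, a stress-induced repressor gene, was one of them (0.43 on the log2 scale, SE 0.0951, adjusted p = 0.0204) and TRIB3, a pseudokinase gene, the other (0.27, SE 0.0767, adjusted p = 0.0440). PPP1R15A, which encodes GADD34, had 0.20 (SE 0.0710, adjusted p = 0.0785). ATF4 had the lowest value of the list, with group means of 8.13 in the evening control and 7.85 with the PCA pollutants. DDIT3 was also lower, at 7.18 and 7.10. The part of this list in the GDF15 value was not tested.

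The epithelial keratin genes KRT8 and KRT18 had log2 signals of 13.5 to 14.1 on every array, and the surfactant gene SFTPB was at 6.25 to 6.59, with SFTPC at 6.51 at most. Of the leukocyte markers, PTPRC was at 4.08 to 4.51, below the limit of 4.91, while CD3E (5.41 to 5.62) and CD68 (9.47 to 9.85) were above it on every array. The endothelial markers PECAM1, VWF and CDH5 lay between 5.24 and 6.15. Of the fibroblast markers, COL1A1 was at 7.95 to 8.44, COL3A1 at 6.86 to 7.17 and DCN at 4.72 to 5.36. Of 5 epithelial markers 1, CDH1, fell after the PCA pollutants (-1.11 on the log2 scale, SE 0.0721, limma adjusted p = 0.000699), against 2.66% of all genes. EPCAM and KRT19 did not pass, with group means of 9.41 and 8.87 in the evening control and 8.97 and 9.00 with the PCA pollutants. Of 10 markers of type II, leukocyte, endothelial and fibroblast cells tested, 0 passed, against 3.53% of all genes. By the adjusted p alone COL1A1 (-0.37) was lower and DCN (0.42) higher, against 14.1% and 5.63% of all genes. ACTB had -0.030 (SE 0.0919, adjusted p = 0.830). The PCA arrays had a narrower spread of log2 signal (SD 1.98 to 1.99) than the other 6 (2.04 to 2.07), and the part of this and of the cell markers in the values of the p53 targets was not tested.

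For CDKN1A, MDM2, GDF15, TP53I3 and TNFRSF10B the 2 arrays of a group differed most in the morning control. BBC3, ZMAT3 and RRM2B differed most with the primary pollutants. FAS had near-equal SDs in the morning control (0.0748) and with the primary pollutants (0.0744). In the morning control replicate 2 was above replicate 1 for 8 of 9 genes, all but BBC3, where 50.3% of all genes were higher in replicate 2. In the other groups 4 to 6 of the 9 were higher in replicate 2. Values of the primary comparison therefore moved with the control array kept: for CDKN1A from -0.12 without morning control 1 to 0.14 without morning control 2, and for MDM2 from -0.22 to 0.058.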

How the data were processed

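Each of the 8 deposited arrays holds a log2 value for 28869 probe sets, which the authors had computed by robust multichip average (Partek 6.4 in the submitters' notes), and these values were used unchanged. GEO's platform annotation gives 1 symbol to 19310 probe sets, several to 1752 and none to 7807, and the brightest single-symbol probe set on average stood for each of 18377 genes. BTG2 and the other listed genes without such a probe set were not analysed here.

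Group means of all 8 arrays were fitted in limma 3.58.1 (R 4.3.3) with lmFit and eBayes. Probe sets below a signal of 30 on every array of a comparison were left out of it, and Benjamini-Hochberg adjustment ran over the rest. Standard errors are of log2 fold changes, with 4 residual degrees of freedom before moderation, and the number of arrays limits their precision. The fit was tested on simulated arrays. Python 3.11.15 with matplotlib 3.10.9 made the figures.

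The p53 targets, the other gene lists and the alternatives were chosen with earlier results of these data known, so the lists are described by counts and medians without a test. Genes named are the p53 targets, MDM4 and ACTB, up to 8 called genes of each list and the 3 of smallest p after the PCA pollutants, and the 5 genes of highest r with CDKN1A, MDM2 and GDF15. Cell markers were named beside them.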

Additional observations from a re-analysis of the deposited data

Results flagged for a closer look

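For 3 of the 156 genes of the lists that were tested the response to the PCA pollutants differed from that to the primary pollutants by limma's test of the difference, against 0.439% of all 17540 genes. TP53INP1 differed by -1.09 on the log2 scale (SE 0.102, adjusted p = 0.0230), BCL6 by -0.74 (SE 0.102, adjusted p = 0.0370) and CDH1 by -0.70 (SE 0.102, adjusted p = 0.0392). TP53INP1 and CDH1 were lower in all 4 exposed arrays than in their controls, and more so after the PCA pollutants. BCL6 was above the morning control in both primary arrays and below the evening control in both PCA arrays. None of the 3 differences kept its place past the threshold when any 1 of the 8 arrays was left out, though the size stayed between -1.14 and -1.04 for TP53INP1, -0.79 and -0.68 for BCL6, and -0.76 and -0.65 for CDH1 in these fits. With the replicate block the adjusted p was 0.0519 for TP53INP1, 0.0900 for BCL6 and 0.0915 for CDH1, and in the analysis of variance 0.0512, 0.0820 and 0.0842, so none passed, nor did any pass in limma's treat test against a fold of 1.5. Under quantile normalization, cyclic loess and no limit on signal the adjusted p stayed below 0.05 for TP53INP1 and not for BCL6 or CDH1, and under ribosomal scaling it was 0.0711 for CDH1. Mixture, time of day and run cannot be told apart in these differences.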

How the results depend on the processing

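The count of p53 targets that passed was 0 after the primary pollutants, in the difference between responses and between the controls under every alternative run. After the PCA pollutants it was 1 of 9 (GDF15) under 10 alternatives, 0 in the analysis of variance (GDF15 adjusted p = 0.0782), in limma's treat test against a fold of 1.5 and with the controls exchanged, 3 with no fold limit, and 0 to 1 when each array was left out in turn. GDF15 was at 0.61 to 0.82 on the log2 scale under the scalings. Replicate numbers are shared between groups, but deviations of same-numbered arrays correlated only between -0.12 and 0.05, so the arrays share only a number. With the replicate block GDF15 kept its 0.67 (adjusted p = 0.0256) and the members called stayed at 1, while genes called in the difference between responses went from 77 to 2 and TP53INP1 to an adjusted p of 0.0519.

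Over all genes, calls for that difference were 16 without a limit on signal, 247 with a limit of 100, 278 with a trended and robust prior, 1 in the analysis of variance, 0 by treat and 0 to 3 with an array left out. For the PCA pollutants they were 617, against 3441 without a fold limit and 28 by treat. For the primary pollutants they were 6 with the trended prior and 25 with the controls exchanged. Of other p53 targets, 2 rose and 8 fell, against 5 fallen under quantile normalization and cyclic loess, and 0 to 4 risen with an array left out, and 0 rose with the controls exchanged, where 7 genes repressed through p21 and DREAM fell. Under ribosomal scaling 1 regulator of p53, CDKN2A, rose (0.61 on the log2 scale, limma adjusted p = 0.0269). As deposited, its log2 signals were low, at 5.89 and 6.01 in the evening control and 6.22 and 6.61 with the PCA pollutants (SD 0.28). These are close to the levels of the endothelial markers (5.24 to 6.15), so this call is not read as induction of CDKN2A.

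Small values changed sign. The set of ribosomal protein genes used for scaling was narrowed, leaving out paralogs, after the data had been seen. Scaled to ribosomal protein genes, the primary values became 0.015 (MDM2), 0.036 (ZMAT3) and 0.039 (RRM2B), the PCA values 0.13 (FAS), 0.087 (RRM2B) and 0.12 (ACTB), the difference 0.048 (RRM2B), and evening over morning control 0.0079 (CDKN1A), 0.0066 (MDM2), 0.056 (TP53I3) and 0.066 (ZMAT3). Cyclic loess gave 0.016 (FAS), 0.063 (RRM2B) and 0.064 (ACTB) for the PCA pollutants and 0.012 (MDM2), 0.021 (TP53I3) and 0.098 (RRM2B) for the difference. Quantile normalization gave 0.013 (FAS) and 0.048 (RRM2B) for the PCA pollutants and 0.082 (RRM2B) for the difference, and median centring -0.0081 (CDKN1A) for the primary pollutants. Exchanged controls gave -0.019 (BBC3) and 0.081 (RRM2B) for the primary and -0.0023 (CDKN1A) and 0.038 (ACTB) for the PCA pollutants. The cause was not tested.

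With an array left out, primary values ran from -0.12 to 0.14 (CDKN1A), -0.22 to 0.058 (MDM2), -0.049 to 0.38 (GDF15) and -0.035 to 0.12 (TNFRSF10B), PCA values from -0.031 to 0.0047 (FAS) and -0.076 to 0.016 (ACTB), differences from -0.064 to 0.20 (CDKN1A), -0.24 to 0.038 (MDM2) and -0.058 to 0.057 (RRM2B), and evening over morning control from -0.21 to 0.052 (CDKN1A), -0.22 to 0.060 (MDM2), -0.072 to 0.0072 (TP53I3), -0.065 to 0.021 (ZMAT3) and -0.040 to 0.12 (TNFRSF10B).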
